A study of Mus musculus with 63 samples.

Results

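The NMDA-type glutamate receptor genes and Grina were followed cell by cell in single neurons of the mouse primary visual cortex (V1). The 8 members were chosen by gene symbol, as the rows named Grin1, Grin2a, Grin2b, Grin2c, Grin2d, Grin3a, Grin3b and Grina among the 20183 gene rows of the expression table, and all 8 were found. The cells were somata drawn by patch pipette from layer 2/3 of V1 of lightly anesthetized C57BL/6 wild type mice aged 70 days, after calcium imaging during drifting gratings. Cells that answered most of the repeated stimuli were light-sensitive (LS, 46 cells), and cells that answered at most once were non-light-sensitive (NS, 17 cells). All cells came from mice with the same genotype and stimulus, and the labels set the groups apart by the calcium response alone. The expression unit was FPKM, the fragments of a gene scaled by its length and by the cell's read total. Levels of genes of different length can be compared on it only as far as reads cover the genes evenly, which was not tested. After the study's cell filters were applied to the deposited values, 35 LS and 12 NS cells remained, and the values below are over those cells unless another set is named. The study kept more LS cells than this. On the deposited values the astrocyte score alone removed 7 LS and 3 NS cells, more than its scores did there, and no cell passed the mitochondrial limit, so the kept cells are not the same set.

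NMDA receptors are ligand-gated channels that pass calcium when glutamate and a co-agonist are bound while the membrane is depolarized. Each channel holds the GluN1 subunit (Grin1) together with GluN2 subunits (Grin2a to Grin2d), which set its kinetics, or GluN3 subunits (Grin3a, Grin3b). In the visual cortex the Grin2b product is prominent early in life and the Grin2a product gains weight as the cortex matures, and the balance of the pair is a classical readout of synaptic maturation. Grina, despite its symbol, does not encode a channel subunit but a membrane protein of the TMBIM family of BAX inhibitor motif proteins.

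The labels name no mouse, so each group counts as 1 sample, no test was made and the SD is the spread between cells. Sequencing was deeper in LS: the median kept cell had 871506 gene reads in LS (range 366363 to 2509013) and 315568 in NS (range 147972 to 880822). A list of 8 general neuronal markers summed to a median of 1274 FPKM in LS cells, with a range of 2.89 to 2155, and only to 71.9 (0 to 1918) in NS cells. The median LS cell had a read of 8 of those markers and the median NS cell of 2, and NS_15 had none. As a background, 1031 olfactory, vomeronasal and taste receptor genes, which cortical neurons are not known to use, served: their mean per cell had a median of 0.258 FPKM over LS and of 4.25 over NS. In 9 of the 12 NS cells and 4 of the 35 LS cells that background reached at least 10% of the level that evenly spread reads would give. Its part in the differences below was not tested.

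The genes lie on 8 different chromosomes of GRCm38. Grin1 (ENSMUSG00000026959) spans chr2:25291181-25319187, Grin2a (ENSMUSG00000059003) chr16:9567898-9995560 and Grin2b (ENSMUSG00000030209) chr6:135713233-136173511, all on the minus strand. Grin2c (ENSMUSG00000020734) spans chr11:115249169-115267243, Grin2d (ENSMUSG00000002771) chr7:45831883-45878378 and Grin3a (ENSMUSG00000039579) chr4:49661611-49845744, also on the minus strand. Grin3b (ENSMUSG00000035745) lies on the plus strand at chr10:79970715-79977190 and Grina (ENSMUSG00000022564) on the plus strand at chr15:76246764-76249904. Annotated genes overlap Grin1 (Grin1os), Grin2b (Gm14329 and others), Grin2c (Gm25837), Grin2d (Kdelr1, Gm45441) and Grin3b (Tmem259) on the opposite strand, and Grin3a holds Ppp3r2 on its own strand. Whether counting used the strand, and how it treated reads shared by overlapping genes, is not given in the sources used here. Whether reads of those partners entered the members' values therefore cannot be told.

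RefSeq windows of 250 bases before the annotated start (GRCm38.p6) matched 4 of the 8 members: Grin1, Grin2c, Grin2d and Grin3b. Their starts are not always those of the spans above. The Grin2d window (chr7:45866682-45866931) lies inside the Grin2d span, and the Grin3b window runs a few bases into the Grin3b span. The pair with the most and the fewest CG dinucleotides is shown, because of these 4 members Grin1 was also the one read in the most cells and Grin3b in the fewest. Capitals mark each CG, which reads the same on both strands. The Grin1 window (chr2:25319188-25319437, minus strand) and the Grin3b window (chr10:79970474-79970723, plus strand) are written 5′ to 3′.
Grin1: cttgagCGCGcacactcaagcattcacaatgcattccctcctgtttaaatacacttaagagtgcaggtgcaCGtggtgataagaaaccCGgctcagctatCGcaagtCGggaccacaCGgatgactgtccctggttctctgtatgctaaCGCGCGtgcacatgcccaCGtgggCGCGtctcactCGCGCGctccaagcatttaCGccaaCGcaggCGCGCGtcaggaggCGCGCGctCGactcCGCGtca
Grin3b: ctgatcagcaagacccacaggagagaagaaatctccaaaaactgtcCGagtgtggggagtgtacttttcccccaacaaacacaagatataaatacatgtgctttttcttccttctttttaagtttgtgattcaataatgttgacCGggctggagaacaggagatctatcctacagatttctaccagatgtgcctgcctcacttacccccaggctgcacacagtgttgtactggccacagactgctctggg
The Grin1 window held 27 CG and only 8.56% of the 32851 promoter windows held as many, whereas the Grin3b window held 2 and 81.2% of windows held as many. The Grin2c window held 15 and the Grin2d window 9, against a median of 6 over all windows, of which 92.1% held at least 1 CG. The count describes the letters of these windows and was not tied to expression by any measurement here.

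Grina, Grin1, Grin2b and Grin2a were read in nearly every LS cell, in that order of mean level, and in a smaller share of NS cells. Grina averaged 323 ± 202 FPKM over LS cells (SD, n = 35) and ranked 81 of 20179 uniquely named genes by LS mean. Grin1 averaged 40.3 ± 31.1 FPKM, Grin2b 19.4 ± 17.5 and Grin2a 9.13 ± 8.18 in the same cells. The remaining subunits averaged between 0.375 FPKM (Grin3b) and 3.13 FPKM (Grin2d) in LS, with SDs larger than their means. Within LS cells Grina exceeded Grin1 in 34 of 35 cells, Grin1 exceeded Grin2b in 29 and Grin2b exceeded Grin2a in 27, so this order of FPKM held in most single cells. For Grin1 and Grin2b it rests on the scaling by length: over the LS cells Grin2b had 19721 reads and Grin1 17026. Below Grin2a the order was not settled: Grin2d exceeded Grin3a in 10 cells, fell below it in 8 and tied with it in 17.

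**Figure D1:**
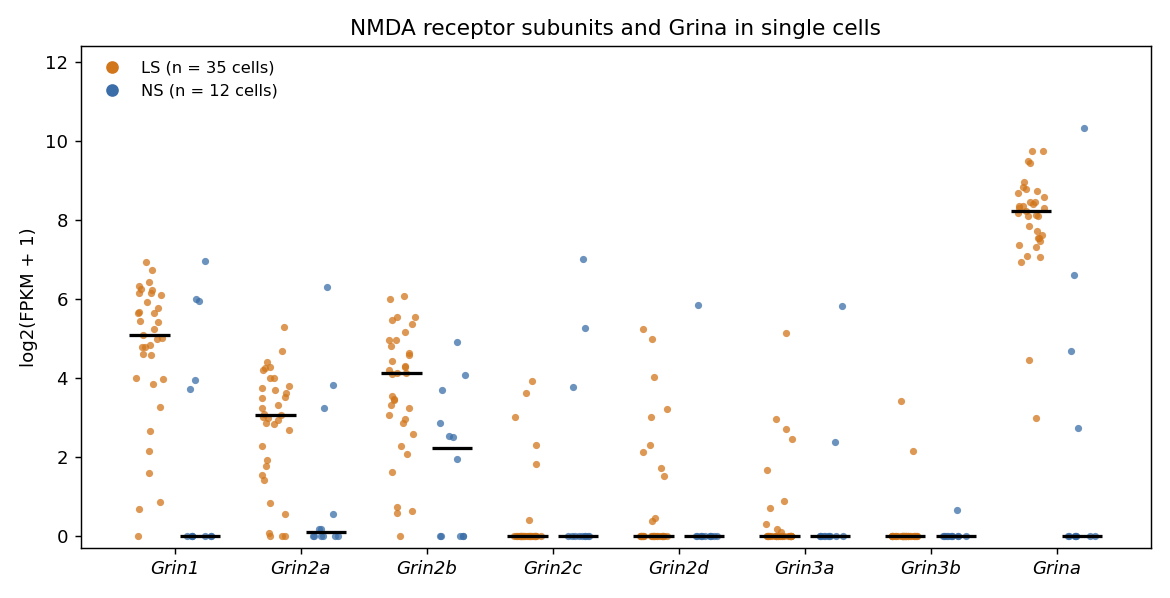
Level of each gene in each kept cell as log2(FPKM + 1), LS in orange (35 cells) and NS in blue (12 cells), with the group median as a black bar. Grin1, Grin2a, Grin2b and Grina lie well above 0 in most LS cells, while the NS medians of Grin1 and Grina are at 0 with single NS cells as high as the highest LS cells.

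Grin1, the subunit that every NMDA receptor needs, ranged from 0 to 121 FPKM over LS cells with a median of 33.05. Its NS values ran from 0 to 123 FPKM with a median of 0. The groups overlapped fully, since the highest NS cell (NS_4) stood above all LS cells, but 34 of 35 LS cells and only 5 of 12 NS cells had a read. The 5 NS cells were NS_4 (123 FPKM), NS_12 (62.7), NS_13 (60.5), NS_16 (14.4) and NS_2 (12.1). The LS mean was higher by 0.83 on the log2 scale (NS mean 22.7 ± 39.2 FPKM, n = 12), and without NS_4 the log2 ratio was 1.57. The 5 NS cells with a read lay within or just above the LS range, and the other 7 were at 0.

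Grin2b, the subunit of slow and juvenile-type receptors, ranged from 0 to 66.0 FPKM in LS with a median of 16.4, and from 0 to 28.9 FPKM in NS with a median of 3.75. It was read in 34 of 35 LS and 7 of 12 NS cells, and 9 LS cells stood above the highest NS cell (NS_15). The ratio of means was 1.64 on the log2 scale (19.4 ± 17.5 against 6.25 ± 8.77 FPKM), so Grin2b was one of the members past a 2-fold difference. In NS_15 the sensory receptor genes averaged 21.2 FPKM, close to its 28.9 FPKM of Grin2b, and without that cell the log2 ratio was 2.21.

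Grin2a, the subunit of fast and mature-type receptors, ranged from 0 to 37.8 FPKM in LS with a median of 7.37. In NS its median was 0.0629 FPKM and its highest value 77.4 FPKM, in NS_16. That cell alone carried 90.4% of the 1124 Grin2a reads of the NS group, and no LS cell reached its level. Grin2a was read in 32 of 35 LS and 6 of 12 NS cells, and in 3 of those NS cells it was below 1 FPKM. The means were alike (9.13 ± 8.18 against 8.30 ± 22.2 FPKM, log2 ratio 0.14), whereas without NS_16 the log2 ratio was 2.17. Over the cells with a low sensory receptor background, NS_16 among them, it was -1.44. The size of the Grin2a difference between LS and NS therefore rested on 1 cell.

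Grina was the most even member in LS, with a lowest value of 6.92 FPKM (LS_17), a median of 296 and a highest value of 848 (LS_34), and its SD was 0.623 of its mean. In NS it was read in 4 of 12 cells: NS_14 (1284 FPKM), NS_12 (95.9), NS_9 (24.8) and NS_16 (5.65). The other 8 NS cells were at 0, as no LS cell was, yet NS_14 was higher than all LS cells. The ratio of means was 1.46 on the log2 scale (117.5 ± 368 FPKM in NS), and without NS_14, which held 89.7% of the group's 1925 Grina reads, it was 4.82. Over the 3 NS cells with a low sensory receptor background, NS_13, NS_14 and NS_16, against the 31 such LS cells the ratio turned to -0.39.

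Of the 7 members with a mean of at least 1 FPKM in either group, 2 were at least 2-fold higher in LS (Grin2b, Grina), against 33.8% of the 16760 genes so measured. Another 2 members were at least 2-fold lower in LS (Grin2c, Grin3a), against 38.9% of those genes. The members' median log2 ratio was 0.14 and that of all measured genes -0.36, so neither count stood far from the share in the whole table. Without NS_16, 4 members were at least 2-fold higher in LS, Grin2a and Grin3a being the added ones. On the mean of log2(FPKM + 1), which weights how many cells hold a gene more than how high single cells go, Grin1, Grin2a, Grin2b and Grina were higher in LS by 2.46, 1.59, 1.81 and 5.94. On that scale the median of all genes was 0.26, above the -0.36 of the ratios of means. Of all genes, 27.2% were at least 2-fold higher in LS on it.

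**Figure D2:**
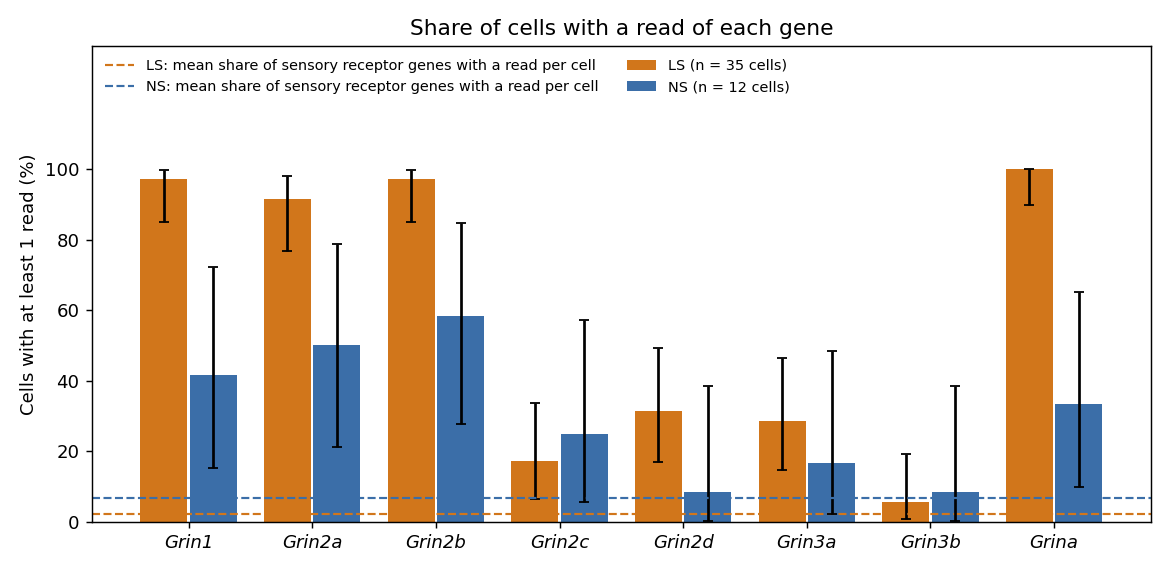
Share of kept cells with at least 1 read of each gene (percent), LS in orange and NS in blue, with exact binomial 95% intervals over the cells, which cover counting error only and not differences between mice. Dashed lines give the mean share of 1031 sensory receptor genes with a read per cell, 2.22% in LS and 6.58% in NS. The LS bars of Grin1, Grin2a, Grin2b and Grina stand at 91.4% or more and their NS bars between 33.3% and 58.3%.

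The share of cells with a read was higher in LS for each of these 4 genes. The Grin1 share was 97.1% (95% interval by the exact binomial method, 85.1% to 99.9%) against 41.7% in NS (15.2% to 72.3%), and the Grina share was 100% (90.0% to 100%) against 33.3% (9.92% to 65.1%). For Grin2a the shares were 91.4% (76.9% to 98.2%) and 50% (21.1% to 78.9%). For Grin2b they were 97.1% (85.1% to 99.9%) and 58.3% (27.7% to 84.8%). With each cell thinned to 200000 reads, which left out 4 of the 12 NS cells as too shallow, Grin1 was read in 97.1% of LS and 50% of the 8 NS cells, and Grina in 100% and 50%. Reading fewer genes per cell was general in NS: of the 224 genes read in all 35 LS cells, the median gene was read in 8 of 12 NS cells, and 7.59% of them were read in 4 NS cells or fewer, the count of Grina. Of the 451 genes read in at least 34 LS cells, 26.6% were read in 5 NS cells or fewer, the count of Grin1, and 55.9% in 7 or fewer, the count of Grin2b. Of the 1028 genes read in at least 32 LS cells, 59.6% were read in 6 NS cells or fewer, the count of Grin2a, so the lower NS shares of Grin2a and Grin2b were ordinary for genes so widely read in LS.

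Grin2c, Grin2d, Grin3a and Grin3b were rare in both groups, and each group's level came from a few cells. Grin2c, best known from cerebellar granule cells and also found in astrocytes, was read in 6 of 35 LS cells with a highest value of 14.1 FPKM, in LS_33. In NS it was read in NS_14 (127.9 FPKM), NS_15 (37.3) and NS_8 (12.7), for a mean of 14.8 ± 37.3 against 1.12 ± 3.21 FPKM in LS and a log2 ratio of -3.73. Without NS_14 the log2 ratio was -2.03, and without LS_33 it was -4.34. NS_14 also carried 6 of 7 astrocyte markers, which summed to 1816 FPKM, beside a neuronal marker sum of 82.3 FPKM. NS_15 had no read of any of the astrocyte markers and none of any general neuronal marker. The sensory receptor genes averaged 21.2 FPKM in NS_15 and 11.9 FPKM in NS_8. Of those genes, 3.39% in NS_15 and 11.6% in NS_8 reached the Grin2c level of the cell. Among the 10 cells that the astrocyte score had removed, Grin2c was read in 6, with values up to 184 FPKM in NS_5 and 97.9 in LS_46, against 9 of the 47 kept cells. These shares were 60% (exact interval 26.2% to 87.8%) and 19.1% (9.15% to 33.3%), and what part astrocyte transcripts had in the NS mean was not tested.

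Grin2d, typical of interneurons, was read in 11 of 35 LS cells and 1 of 12 NS cells. Its highest LS values were 36.6 FPKM in LS_17 and 30.4 in LS_40, both excitatory-marked, that is with more Slc17a7 and Neurod2 than Gad1 and Gad2. The NS value, 56.0 FPKM, was in NS_8, where the sensory receptor genes averaged 11.9 FPKM. The means, 3.13 ± 8.23 and 4.66 ± 16.2 FPKM, differed by less than the spread between cells (log2 ratio -0.58).

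Grin3a, whose subunit lowers calcium entry, was read in 10 of 35 LS cells but reached 1 FPKM in 5 of them. Its top values were 34.3 FPKM in LS_14 and 55.6 in NS_16, and both cells were inhibitory-marked. NS_16 was the cell with 9164 FPKM of the interneuron peptide gene Sst, whereas LS_14 held 395 FPKM of Gad1 and no Sst. NS_16 held 96.7% of the 517 NS reads and LS_14 held 76.5% of the 898 LS reads. The log2 ratio of means was -1.66, but it was 2.04 without NS_16 and -3.03 without LS_14, so its direction rested on 1 cell.

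Grin3b, known from motor neurons, was rare in both groups. It was read in LS_4 (9.73 FPKM), in LS_44 (3.41 FPKM) and in NS_12 (0.580 FPKM), and its 36 LS and 2 NS reads gave a pooled log2 ratio of 1.16 with a counting interval of -0.80 to 4.26. In LS_4 and LS_44 the sensory receptor genes averaged 2.02 and 0.428 FPKM, both below the Grin3b value of the cell. Those means include the receptor genes without a read. In LS_4 20.2% of the receptor genes had a read and 6.50% reached the Grin3b level. In LS_44 these shares were 2.13% and 1.16%. Cells with a read made up 5.71% of LS and 8.33% of NS, where the mean share of sensory receptor genes with a read was 2.22% and 6.58%.

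Subunits were next compared within cells, since a channel needs Grin1 with a partner. Grin1 was read together with at least 1 Grin2 gene in 94.3% of the LS group (33 of 35, exact interval 80.8% to 99.3%) but in 41.7% of the NS group (5 of 12, exact interval 15.2% to 72.3%). Grin1, Grin2a and Grin2b were all read in 32 LS cells and in 2 NS cells, NS_13 and NS_16. A Grin2 gene without Grin1 was found in 1 LS cell, LS_43, and in 5 NS cells, NS_6, NS_8, NS_9, NS_14 and NS_15. In NS_6, NS_8, NS_9 and NS_15 the sensory receptor mean was 104%, 120%, 51.6% and 217% of the level of evenly spread reads. In NS_14 and LS_43 it was 3.30% and 5.56%. What part that background had in this pattern was not tested. NS_7 and NS_11 had no read of any subunit, and in both the sensory receptor genes averaged as much as evenly spread reads would give or more (102% and 112% of that level). The median LS cell held 4 of the 7 subunits and the median NS cell 2.

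The balance of Grin2a to Grin2b was taken per cell as the Grin2a share of the summed FPKM of both, in cells with at least 1 FPKM over the pair. Over 32 LS cells the share ran from 0% to 78.3% with a median of 35.1% and a mean of 34.9% ± 19.96 (SD). Grin2b was thus the more abundant message in 25 of the 32 LS cells. A counting interval from the cell's own reads lay wholly below 50% in 23 LS cells and wholly above it in 3. The 3 Grin2a-led cells were LS_25 (64.1%), LS_7 (74.9%) and LS_9 (78.3%), and at the other end LS_39 and LS_44 had almost no Grin2a beside 6.20 and 8.99 FPKM of Grin2b.

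**Figure D3:**
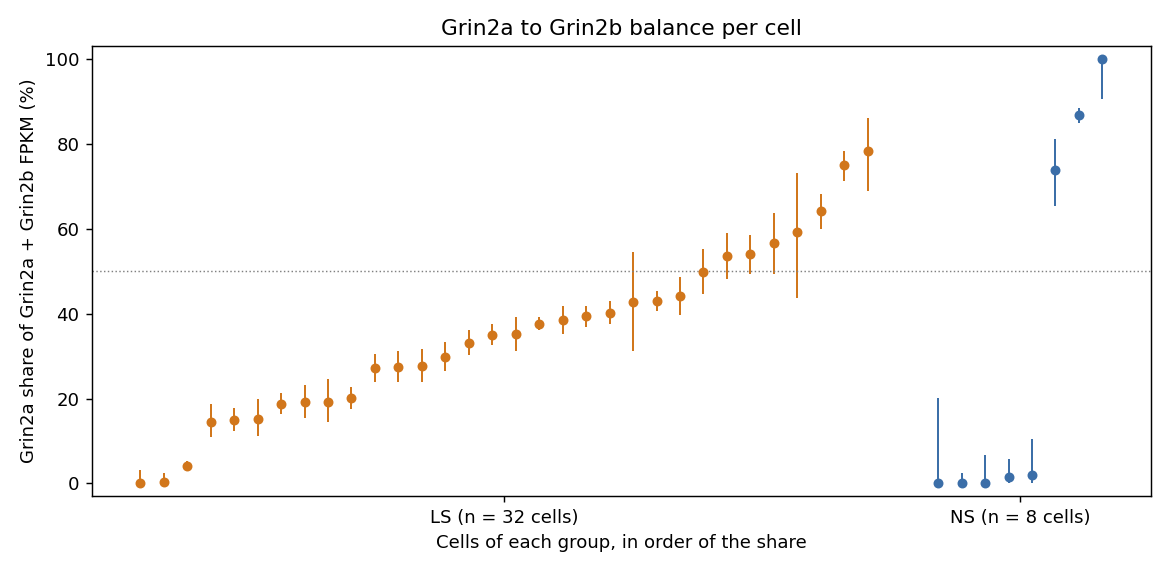
Grin2a share of the summed Grin2a and Grin2b FPKM (percent) in each cell with at least 1 FPKM over both, in rising order within LS (orange, 32 cells) and NS (blue, 8 cells). Bars are 95% intervals from the reads of the cell and cover counting error only, and the dotted line marks 50%. The LS cells form a continuous range from 0% to 78.3%, whereas the NS cells lie at 1.97% or less or at 73.7% or more.

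In NS only 8 of 12 cells qualified, and their shares had a mean of 33.01% ± 45.1 (SD) and a median of 1.795%. The share of the pooled FPKM of those cells was 57.0%, against 31.97% in LS, so the direction of the difference between groups depended on the summary. The pooled NS share was carried by NS_16, which held 77.4 FPKM of Grin2a and 90.4% of the group's Grin2a reads. It was not recomputed without that cell. NS_2, NS_9 and NS_12 had no Grin2a, NS_15 and NS_13 had shares of 1.62% and 1.97%, NS_8 and NS_16 had 73.7% and 86.7%, and NS_6 had no Grin2b. Shares between 20% and 80% were found in 23 of 32 LS cells and 1 of 8 NS cells. The NS shares rested on a median of 94.5 reads per cell over the pair against 574 in LS. In NS_6 the whole Grin2a level, 8.48 FPKM from 27 reads, lay below the cell's sensory receptor mean of 10.3 FPKM. How far low depth or that background shaped the NS shares was not tested.

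By marker class, the 28 excitatory-marked LS cells had a mean Grin2a share of 33.4% ± 17.8 and the 4 inhibitory-marked LS cells one of 45.4% ± 33.3, a difference smaller than the spread between cells. The 4 inhibitory-marked LS cells held less of Grin2b, 4.29 ± 3.64 FPKM against 22.1 ± 17.5 in the 30 excitatory-marked LS cells, and all 4 lay below the excitatory-marked median of 17.9 FPKM. Grin1 was 22.03 ± 18.6 FPKM in the inhibitory-marked and 44.1 ± 31.3 FPKM in the excitatory-marked LS cells, and Grina was 233 ± 98.3 and 346 ± 205 FPKM. The classes were unevenly spread over the groups, with 30 excitatory-marked, 4 inhibitory-marked and 1 unmarked LS cell against 2, 6 and 4 NS cells, so class and response cannot be told apart. The study typed its cells in another way, by placing them among clusters of a reference data set, and these classes from 4 genes need not match its types. No LS cell and 1 NS cell lay within 2-fold of the class boundary. Within the inhibitory-marked cells Grin1 was read in 4 of 4 LS and 3 of 6 NS cells, and Grina in 4 of 4 and 2 of 6. In that class Grin1 averaged 22.03 ± 18.6 FPKM in LS and 22.9 ± 30.5 in NS, so its means were level. Grin2b averaged 4.29 ± 3.64 and 3.49 ± 4.78 FPKM, and Grina 233 ± 98.3 and 16.9 ± 38.8. Grin2a averaged 3.70 ± 3.84 and 14.3 ± 31.1 FPKM, with 97.3% of its NS reads in NS_16. The 2 excitatory-marked NS cells, NS_9 and NS_8, had Grin2b at 15.8 and 4.65 FPKM and no Grin1. Their wider marker lists went against that class: 8 inhibitory markers summed to 19.4 and 234 FPKM in them and 5 excitatory markers to 3.27 and 48.4 FPKM.

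Across the 35 LS cells Grin1, Grin2a and Grin2b rose and fell together, whereas Grina did not follow them. On log2(FPKM + 1), Pearson's r was 0.74 between Grin1 and Grin2a, 0.70 between Grin1 and Grin2b and 0.68 between Grin2a and Grin2b, with Spearman's rho of 0.58, 0.65 and 0.59. The r of Grina was 0.04 with Grin1, 0.13 with Grin2a and 0.28 with Grin2b. LS_17 illustrated this, with the highest Grin1 (121 FPKM) and the lowest Grina (6.92 FPKM) of all LS cells. The cells share their libraries and their scaling, and the r of the members with the log2 read total lay between -0.07 and 0.18 for these genes. The 35 cells mixed 30 excitatory-marked, 4 inhibitory-marked and 1 unmarked cell. LS_13 and LS_43, with a read of 1 and 2 of the 8 general neuronal markers, were low in Grin1, Grin2a and Grin2b. What part marker class or neuronal content had in these r was not tested. The correlations are a description over single cells and carry no test.

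**Figure D4:**
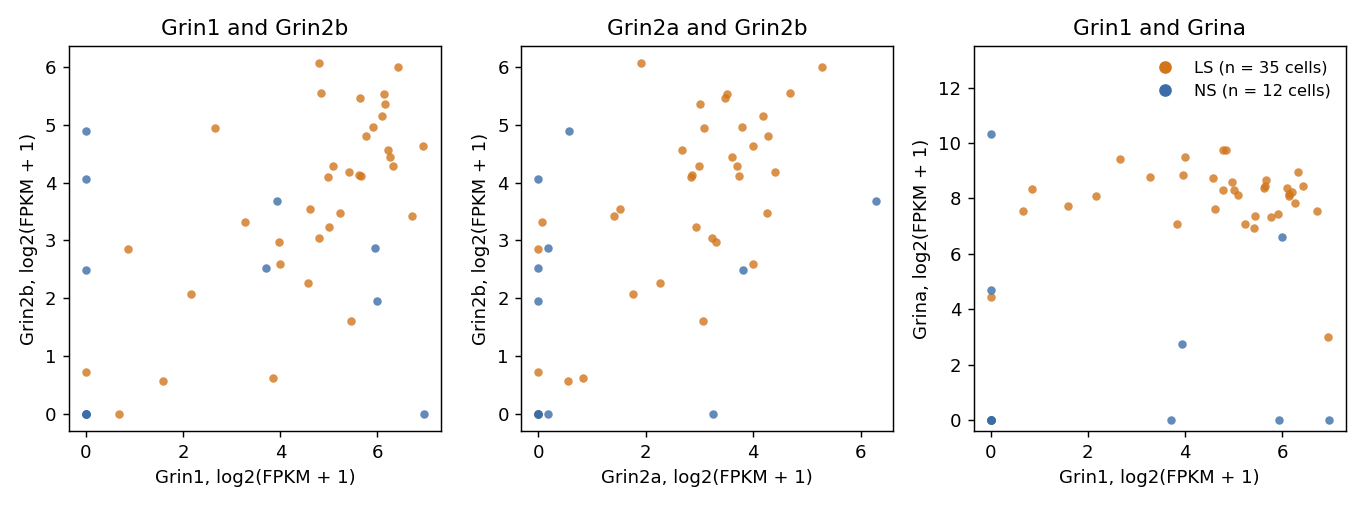
Levels of 2 genes in the same cell as log2(FPKM + 1), LS in orange (35 cells) and NS in blue (12 cells). Grin1 and Grin2b, and Grin2a and Grin2b, rise together over LS cells (r = 0.70 and 0.68), while Grina shows no linear trend with Grin1 (r = 0.04).

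Among genes at or above 1 FPKM in at least 50% of LS cells, those closest to Grin1 were Snap25 (r = 0.88), Wasf1 (0.87), Syt1 (0.87), 2900055J20Rik (0.86) and Uchl1 (0.85). Snap25 and Syt1 encode proteins of synaptic vesicle fusion. Closest to Grin2a were Rbfox3 (0.81), Map9 (0.81), Ncdn (0.77), Syp (0.77) and Tmod2 (0.76), and closest to Grin2b were Fam131a (0.79), the AMPA receptor gene Gria3 (0.79), Nav3 (0.78), Mef2c (0.77) and Arhgap32 (0.76). Rbfox3 encodes the neuronal marker NeuN and Syp a synaptic vesicle protein. Grina had other neighbours and lower values: Ndufa2 (0.71), Swi5 (0.70), Cox6b1 (0.69), Tubb5 (0.68) and Atpif1 (0.68), of which Ndufa2 and Cox6b1 encode parts of the mitochondrial respiratory chain. The median r over all genes so compared was 0.20 for Grin1, 0.16 for Grin2a, 0.13 for Grin2b and 0.09 for Grina.

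The 7 subunits together averaged 10.7 ± 7.27 FPKM per gene in LS and 8.83 ± 7.84 in NS, a log2 ratio of 0.28 and less than the spread between cells. The same was true of each of the 8 members, whose group means differed by less than the larger group SD. Grin1 made up 53.7% of the summed subunit FPKM in LS and 36.8% in NS. The family ratio turned to -0.44 when each gene had equal weight, and to -0.61 over the cells with a low sensory receptor background. For comparison, the AMPA receptor genes (Gria1 to Gria4) averaged 24.5 ± 16.3 and 25.3 ± 55.1 FPKM, a log2 ratio of -0.05 that was 1.11 without NS_16. The kainate receptor genes (Grik1 to Grik5) averaged 4.602 ± 5.22 and 15.4 ± 19.2 FPKM, a log2 ratio of -1.74. Within a cell the Grin genes made up a median of 43.7% of Grin plus Gria FPKM in LS (34 cells) and 92.7% in NS (10 cells), where values ran from 15.2% to 100%. In 4 of those NS cells no Gria gene had a read. Of Grin plus Grik FPKM they made up a median of 80.6% in LS and 48.8% in NS.

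Genes that act with the receptor did not move as 1 block, and single NS cells decided several of their ratios. Of 9 postsynaptic scaffold genes, 5 were at least 2-fold higher in LS and 2 lower, against 33.8% and 38.9% of all measured genes. Dlg2 had a log2 ratio of 2.44 (3.86 without NS_7) and Dlg1 one of 1.99 (3.02 without NS_12). Dlg4, which encodes PSD-95, was read in 20 of 35 LS and 4 of 12 NS cells and had a log2 ratio of -1.75. Its medians went the other way, 1.30 FPKM in LS and 0 in NS, and without NS_6 (210 FPKM) the log2 ratio was -1.34. Its NS reads were in NS_14 and in NS_6, NS_8 and NS_11. In NS_6, NS_8 and NS_11 the sensory receptor mean was 104%, 120% and 112% of the level of evenly spread reads. Shank3 had a log2 ratio of -2.69, which was -2.06 without NS_11.

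Of 13 kinases and phosphatases that act on the receptor or downstream of it, 5 were higher and 2 lower, a share near the 33.8% of all genes for the higher ones. That count was 3 over all 63 cells, where 31.3% of all genes were higher, and 11 on log2(FPKM + 1), where 27.2% were. Cdk5 (7.06) and the calcineurin catalytic gene Ppp3cb (4.18) had the highest log2 ratios, and each was read in only 1 NS cell. Csnk2a1 had -2.02, but 0.98 without NS_13, and Fyn had -1.16, but -0.30 without NS_9. Camk2a, the calcium-dependent kinase that binds GluN2B, was read in all 35 LS and 10 of 12 NS cells. Its medians were 682 and 208 FPKM. Its means, 630 and 543 FPKM, gave a log2 ratio of 0.21, which was 1.12 without NS_4.

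Of 11 binding partners and effectors, 7 were higher and 2 lower, against 33.8% and 38.9% of all genes. The count of 7 fell to 3 over all 63 cells, where 31.3% of all genes were higher. The calmodulin gene Calm2 had a log2 ratio of 3.39 (4.34 without NS_12). Ephb2 had -2.70, but -0.39 without NS_4 and -3.52 without LS_7, and Lrp8 had -1.86, but -0.96 without NS_13.

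Of the 5 genes for supply or removal of the co-agonists D-serine and glycine that reached 1 FPKM, 1 was higher and 3 were lower, again against 33.8% and 38.9%. Srr, which makes D-serine, had a log2 ratio of 1.86 and was read in 24 LS cells and 1 NS cell. Slc6a9, a glycine transporter, had 0.71, which was 2.003 without NS_7 and -0.27 without LS_43. Dao, which breaks D-serine down, had -3.93 from 2 cells in each group, and this was 0.092 without NS_9 and -7.06 without LS_4. Phgdh, which opens serine synthesis, had -2.92, but 1.02 without NS_6.

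Of the 5 other TMBIM genes, 4 were at least 2-fold higher in LS, against 33.8% of all genes. These were Tmbim6 (2.73, and 3.44 without NS_4), Ghitm (2.64), Faim2 (1.87, and 3.55 without NS_4) and Tmbim4, whereas Tmbim1 had -0.70, or 0.52 without NS_11. Tmbim4 was read in 31 LS cells but with 2 reads in 1 NS cell, for a pooled log2 ratio of 7.68 and a counting interval of 5.82 to 10.7.

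Among the AMPA receptor genes, Gria2 (2.504) and Gria3 (2.29, and 3.69 without NS_13) were higher in LS. Gria1 was read in 34 of 35 LS and 4 of 12 NS cells. Its medians were 16.7 and 0 FPKM, and its log2 ratio of -1.19 was 2.72 without NS_16, which held 626 FPKM. Gria4 had -0.71, but 1.04 without NS_13. Among the kainate receptor genes, Grik1 had 1 LS read and 523 NS reads, a pooled log2 ratio of -12.0 with a counting interval of -17.3 to -9.56. Those NS reads lay in 4 of the 12 NS cells, and the NS median was 0. Its log2 ratio of means was -10.7, and -10.08 without NS_6, which held 160 FPKM and had a sensory receptor mean of 104% of the even level. Grik3 had -5.62 (-4.38 without NS_16 and -6.29 without LS_42), Grik5 had 0.39 (1.37 without NS_12) and Grik4 had 0.35 (2.18 without NS_8).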

How the data were processed

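The authors deposited FPKM values per gene and cell, made per their methods by trimming with AfterQC, aligning to GRCm38 with STAR 2.5.3a (named in the submitters' processing notes with featureCounts), counting with featureCounts and scaling with scater, and they had left out genes below 1 FPKM and genes that code for no protein. All 63 columns were used, and 0 were left out. Rows of duplicated names were dropped, leaving 20179 genes. Cells were removed for low cDNA (2, named by the study), under 1000 genes above 1 FPKM (1), or co-detection of astrocyte (10), oligodendrocyte (1) or excitatory and inhibitory (2) markers, which left 47; no cell passed 25% mitochondrial reads. The members and gene lists were chosen with earlier results of these data known.

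Whole reads were recovered from the FPKM steps with gene lengths of GENCODE M21, solved from the steps where they differed. This covered 99.2% of values above 0, and of values under 200 reads 99.8% came out whole within 0.01 of a read. The recovery and the ratio of means were tested on simulated data. No count test was run, because each group is 1 sample. Each group is given by its mean FPKM, and differences are log2 ratios of LS to NS means. A gene was measured where either mean was at least 1 FPKM, and differences past 2-fold were counted. Reads carry no molecular identifiers, so exact binomial and Poisson-based intervals at 95% cover counting error only, and those over cells hold no spread between mice. The even level of a cell spreads its reads over all exon bases of the listed genes. Classes compare summed Slc17a7 and Neurod2 with summed Gad1 and Gad2 FPKM. Named genes are all members, the 2 highest and 2 lowest log2 ratios of each list with Camk2a and Dlg4, and the 5 genes most correlated with Grin1, Grin2a, Grin2b and Grina. A gene that this rule also names is not reported here. Other cells were named where 1 cell decides a value. Alternatives were all 63 cells, pooled reads, medians, log2(FPKM + 1) and log2(FPKM + 0.1), reads scaled by the cell total only, thinning to 200000 reads, cells by marker class, background or gene number, and leaving out each cell. The software was scipy 1.17.1, numpy 2.4.6, pandas 2.3.3 and matplotlib 3.10.9 under Python 3.11.15.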

Additional observations from a re-analysis of the deposited data

How the results depend on the processing

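Each result was recomputed with 1 choice changed at a time, and the ratios and counts that moved by over 1.5 times, and the shares of cells that left their interval, are given here. The low number of NS cells with a low background (3) and of excitatory-marked NS cells (2) limits those settings. Over all 63 cells, the log2 ratio was -1.73 for Grin2c and 4.83 for Grin3b, and the list count at least 2-fold higher in LS was 3 for kinases and phosphatases and 3 for receptor partners. Over the 32 excitatory-marked cells, the log2 ratio was -2.44 for Grin2c, -2.97 for Grin2d and 4.80 for Grina, and the share of cells with a read was 100% for Grin1 in LS, 0% for Grin1 in NS, 100% for Grin2b in NS, 50% for Grin2d in NS, 50% for Grin3a in NS and 0% for Grin3b in NS. Over the 34 cells with a low sensory receptor background, the log2 ratio was -1.44 for Grin2a, -5.69 for Grin2c, -3.66 for Grin3a and -0.39 for Grina, and the log2 ratio of the subunit family was -0.61, and 1 member was at least 2-fold higher in LS, and the share of cells with a read was 0% for Grin2d in NS, 0% for Grin3b in NS and 66.7% for Grina in NS. Over the 39 cells with at least 3000 genes, the log2 ratio was 3.28 for Grin1, -0.77 for Grin2a, -0.84 for Grin2c, -1.49 for Grin2d, -2.58 for Grin3a and 6.03 for Grina. With medians, the log2 ratio was 6.87 for Grin2a, and 4 members were at least 2-fold higher in LS. On log2(FPKM + 1), the log2 ratio was 2.46 for Grin1, 1.59 for Grin2a, -0.91 for Grin2c, 0.34 for Grin2d, -0.20 for Grin3a, 0.10 for Grin3b and 5.94 for Grina, and 4 members were at least 2-fold higher in LS, and the list count at least 2-fold higher in LS was 11 for kinases and phosphatases, 4 for AMPA receptors and 1 for kainate receptors. On log2(FPKM + 0.1), the log2 ratio was 4.20 for Grin1, 3.18 for Grin2a, 3.001 for Grin2b, -1.24 for Grin2c, 0.96 for Grin2d, -0.066 for Grin3a, 0.11 for Grin3b and 8.17 for Grina, and the log2 ratio of the subunit family was 0.97, and 4 members were at least 2-fold higher in LS. With pooled reads, the log2 ratio was 0.26 for Grin2d, 1.16 for Grin3b and 0.67 for Grina, and 1 member was at least 2-fold higher in LS, and the list count at least 2-fold higher in LS was 2 for co-agonist supply. With cells thinned to 200000 reads, the log2 ratio was -1.24 for Grin2d, 0.87 for Grin3b and 0.86 for Grina, and 1 member was at least 2-fold higher in LS. With Grina as a member, the log2 ratio of the subunit family was 1.15. With equal weight for each gene, the log2 ratio of the subunit family was -0.44. Counting cells at or above 1 FPKM, the share of cells with a read was 14.3% for Grin3a in LS and 0% for Grin3b in NS.

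Leaving out each cell in turn moved the log2 ratio of Grin1 between 0.70 and 1.57, of Grin2a between -0.0034 and 2.17, of Grin2b between 1.51 and 2.21, of Grin2c between -4.34 and -2.03, of Grin2d between -1.12 and -0.53, of Grin3a between -3.03 and 2.04, of Grin3b between 1.05 and 2.9999 and of Grina between 1.34 and 4.82. The family's log2 ratio lay between 0.15 and 0.50, the count of members at least 2-fold higher in LS between 2 and 4, and the mean Grin2a share between 33.5% and 36% in LS and between 23.4% and 37.7% in NS. The count of 4 came from leaving out NS_16. The mean Grin2a share in NS, 33.01%, has an SD too wide to show a movement: it was 52.1% over the cells with at least 3000 genes and 57.0% of pooled FPKM, and the median was 1.795%, while the LS share lay between 28.9985% and 36.05% under all alternatives. On both log scales the median of all genes also moved, from -0.36 to 0.26 and 0.62, and 82.5% and 76.8% of genes past 2-fold were higher in LS, against 46.5% for ratios of means. Of all measured genes, 27.2% and 42.6% were at least 2-fold higher in LS on those scales, against 33.8% for ratios of means. That share was 31.3% over all 63 cells and 34.8% of 16079 genes with pooled reads. It was not taken for the other settings. No ratio of medians could be had for the members whose NS median is 0, and no ratio for Grin2d without NS_8 or for Grin3b without NS_12, whose NS mean is then 0. Leaving out cells for the named partner genes and the other receptor families was chosen after seeing the data. Apart from the choices that fewer cells or the scale itself show, the cause of these movements was not tested. No paired analysis was possible because the labels name no mouse for a cell.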
